A study of Homo sapiens with 4 samples.

Results

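RSAD2, CMPK2, IFI44, IFI44L, IFI6, IFI27, IFI35, EPSTI1 and XAF1 are 9 human genes named, or best known, for their response to interferon. They were followed here in RNA-seq of HT-29 cells, a colorectal adenocarcinoma line, that carried a control vector (Mock) or stably overexpressed N-terminally Myc-tagged TRIM40 (Myc-TRIM40), a RING-type E3 ubiquitin ligase. The members were taken by gene symbol, and 33 of the 63714 transcripts listed belonged to them, which made 9 of 27685 genes once the transcripts of each gene were summed. Each of the 2 independent experiments gave 1 Mock and 1 Myc-TRIM40 library, so the comparison had 4 libraries in all. The labels name no treatment for either group, and the study does not describe adding interferon to these cells. Its methods describe viral transduction followed by selection with puromycin. Expression was driven by an introduced vector in 1 cell line, and whether the cells were a pool or a clone is not given in the sources used here. The comparison asks how TRIM40 overexpression changes the transcriptome of colonic epithelial cells, and interferon-stimulated genes are among those of interest to the study.

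Interferons bind receptors on the cell surface and activate the receptor-bound kinases JAK1 and TYK2. A transcription factor complex that includes IRF9 then enters the nucleus and binds the interferon-stimulated response element in the promoters of its target genes. Some of the targets can also be switched on by interferon regulatory factors alone, without secreted interferon. The products of the 9 genes are varied. RSAD2 (viperin) is a radical enzyme that turns a ribonucleotide into a chain terminator of viral RNA synthesis, and its neighbour CMPK2 is a mitochondrial nucleotide kinase. IFI44 and IFI44L are related cytoplasmic proteins, IFI6 and IFI27 are small hydrophobic proteins of one family that sit in organelle membranes, IFI35 is a leucine-zipper protein that binds NMI, EPSTI1 is an epithelial-stromal interaction protein, and XAF1 binds the apoptosis inhibitor XIAP.

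The promoters are shown first because all 9 genes are known to respond to interferon. The RefSeq table used here (GRCh38.p14) holds 15 promoter windows for the 9 members, each with 250 bases before and 50 bases after an annotated start. Windows of 5 members are printed on the strand of the gene: IFI6, which held the most response element cores, IFI44L, which had the largest fitted change, the neighbours RSAD2 and CMPK2, and IFI35, which had the smallest change. Capitals mark AANNGAAA, a core of sites for interferon regulatory factors, read on either strand. The windows are chr1:27672143-27672442 on the minus strand for IFI6, chr1:78620198-78620497 on the plus strand for IFI44L, chr2:6877527-6877826 on the plus strand for RSAD2, chr2:6865770-6866069 on the minus strand for CMPK2 and chr17:43006534-43006833 on the plus strand for IFI35.
IFI6: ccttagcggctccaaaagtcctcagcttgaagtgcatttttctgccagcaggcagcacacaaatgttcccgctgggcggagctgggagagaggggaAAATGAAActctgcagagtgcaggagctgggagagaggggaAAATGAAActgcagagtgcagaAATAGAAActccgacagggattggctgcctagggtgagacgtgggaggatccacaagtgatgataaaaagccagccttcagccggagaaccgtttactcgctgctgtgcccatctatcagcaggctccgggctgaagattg
IFI44L: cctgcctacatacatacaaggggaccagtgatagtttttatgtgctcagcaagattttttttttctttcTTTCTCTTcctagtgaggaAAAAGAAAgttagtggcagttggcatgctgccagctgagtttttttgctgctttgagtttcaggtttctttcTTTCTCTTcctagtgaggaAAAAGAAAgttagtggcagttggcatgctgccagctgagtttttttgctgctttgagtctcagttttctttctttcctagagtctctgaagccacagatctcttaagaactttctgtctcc
RSAD2: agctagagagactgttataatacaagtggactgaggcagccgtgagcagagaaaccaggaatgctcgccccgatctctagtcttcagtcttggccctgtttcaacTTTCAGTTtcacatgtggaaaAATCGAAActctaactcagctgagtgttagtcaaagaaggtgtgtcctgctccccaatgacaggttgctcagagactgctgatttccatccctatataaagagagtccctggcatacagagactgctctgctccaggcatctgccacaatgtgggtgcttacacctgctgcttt
CMPK2: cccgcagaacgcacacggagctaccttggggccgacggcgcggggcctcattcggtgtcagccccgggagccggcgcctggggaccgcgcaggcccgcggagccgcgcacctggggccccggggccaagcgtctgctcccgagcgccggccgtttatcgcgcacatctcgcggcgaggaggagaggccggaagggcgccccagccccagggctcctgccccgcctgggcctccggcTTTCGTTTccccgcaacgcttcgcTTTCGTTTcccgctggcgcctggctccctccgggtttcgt
IFI35: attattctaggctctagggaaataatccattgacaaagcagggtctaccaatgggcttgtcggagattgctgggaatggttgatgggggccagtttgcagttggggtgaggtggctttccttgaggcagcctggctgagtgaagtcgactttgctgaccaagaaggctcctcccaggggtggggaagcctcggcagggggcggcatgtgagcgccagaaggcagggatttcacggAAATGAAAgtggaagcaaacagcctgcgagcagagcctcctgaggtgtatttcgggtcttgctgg

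The core of the interferon-stimulated response element was searched as GAAANNGAAA on both strands. It was found in 8 of the 15 windows and in 6 of the 9 members (RSAD2, IFI44, IFI44L, IFI6, IFI27 and EPSTI1), against 3.57% of all 35116 windows and 4.38% of 27305 genes in the table. The shorter core AANNGAAA lies within every response element core, so the searches overlap. It was found in 13 of the 15 member windows and in all 9 members, against 22.8% of all windows and 26.7% of genes. Windows can overlap, so the counts of windows are not independent. The windows of IFI27 hold the same sites, as do those of IFI44. The gamma-activated sequence core, searched as TTCNNNGAA, was in EPSTI1, IFI27 and IFI35, which made 4 of the 15 windows against 7.66% of all windows. A match is a run of letters and was not tested as a binding site.

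IFI6 held 3 response element cores, which ended 146, 105 and 83 bases before its start. A run of 29 bases occurs again 41 bases further on in this window, and the first and second cores lie in its copies. IFI44L held 2 response element cores, 154 and 63 bases before its start, which lie in copies of an 85-base run placed 91 bases apart. RSAD2 has 2 windows in the table, and the single response element core, in the window printed above, ended 135 bases before the start. The other RSAD2 window, chr2:6865635-6865934 on the plus strand, shares 165 bases with the CMPK2 window printed above, which runs on the opposite strand. It held 4 regulatory factor cores, and the 2 cores of the CMPK2 window lie in the shared bases and are among these 4. XAF1, CMPK2 and IFI35 held the shorter core without the response element core in the windows searched.

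**Figure D1:**
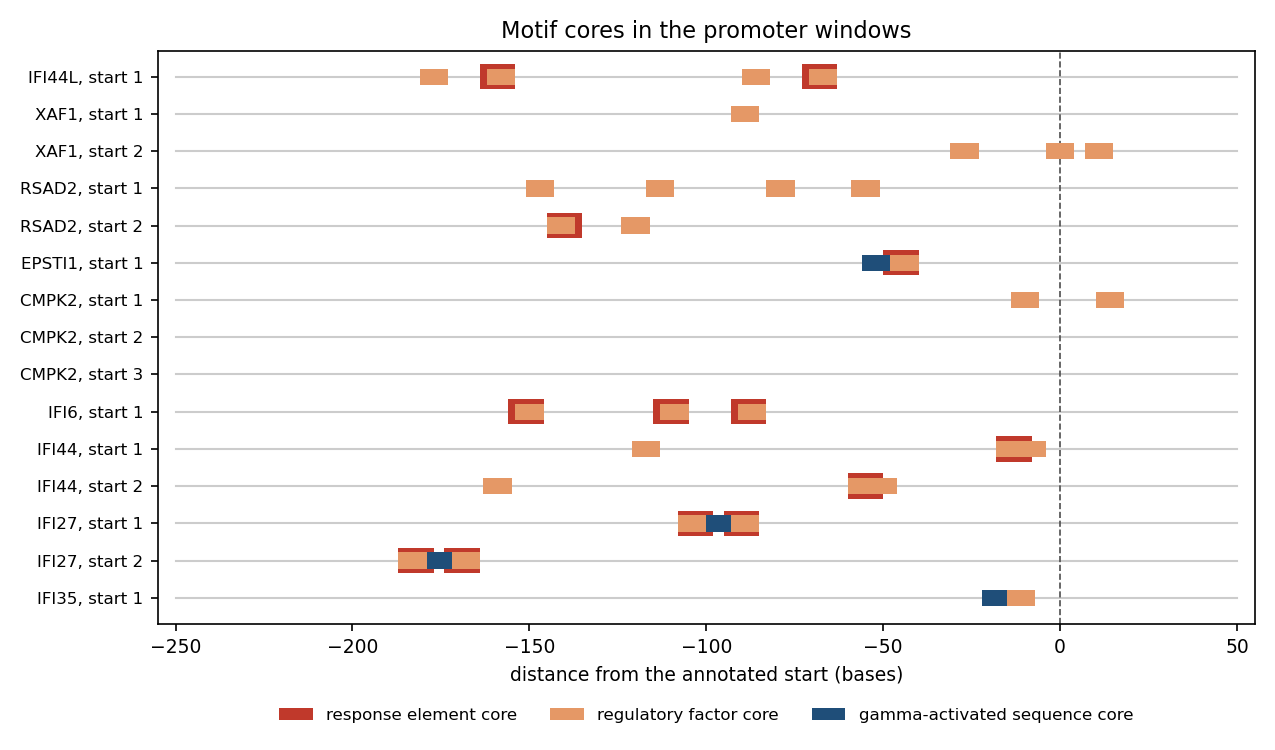
Positions of 3 motif cores in the 15 promoter windows of the 9 members, in bases from the annotated start (dashed line), with 1 row per annotated start and both strands searched. Dark red boxes mark the response element core, orange boxes the regulatory factor core and blue boxes the gamma-activated sequence core, and IFI6 shows 3 response element cores in its single window.

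The Mock and Myc-TRIM40 libraries held 60954602 and 61025795 reads in experiment 1, and 67424698 and 62582054 in experiment 2. TRIM40 had 0 reads in both Mock libraries, and with Myc-TRIM40 it had 272646 reads in experiment 1 and 110665 in experiment 2, which is at least 88493-fold and 36556-fold above a floor of 3 reads. The normalized TRIM40 read count was 2.53 times higher in experiment 1 than in experiment 2. All 7 markers of colon epithelium that were examined were expressed, with summed FPKM of 6363, 7343, 8960 and 7650 in Mock and Myc-TRIM40 of experiment 1 and then of experiment 2. The 7 markers of leukocytes, fibroblasts and endothelium summed to 9.10, 15.3, 8.84 and 9.74 FPKM in the same order. CD68 was the highest of them, at 6.99, 11.9, 5.86 and 7.17 FPKM, followed by CD14 at 1.43, 2.36, 2.61 and 2.08 FPKM. CD3E and COL1A2 had 0 reads in all 4 libraries. FPKM is the read count scaled by transcript length and library size, as the authors computed it, and is given here summed over the transcripts of a gene.

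Across the 9 genes, the Myc-TRIM40 library of experiment 1 stood far above the other 3 libraries. The summed FPKM of the members was 94.8 in Mock and 1629 in Myc-TRIM40 of experiment 1, and 212 in Mock and 306 in Myc-TRIM40 of experiment 2. IFI6 and IFI27 made up 81.2% to 89.7% of that sum in each library. In bulk RNA, more cells expressing a gene and more RNA per cell cannot be told apart.

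Without TRIM40, the 9 genes fell into a group that was plainly expressed and a group near the lower limit of these libraries. IFI27 (64.0 and 128 FPKM in the Mock libraries of experiments 1 and 2), IFI6 (13.0 and 62.1), IFI35 (9.69 and 12.6) and IFI44 (7.34 and 8.48) exceeded 1 FPKM in both. CMPK2 (0.400 and 0.225 FPKM), EPSTI1 (0.118 and 0.208), IFI44L (0.105 and 0.120), XAF1 (0.0969 and 0.118) and RSAD2 (0.0950 and 0.0286) stayed under 1 FPKM in both. In this order of mean Mock FPKM, neighbours had separate ranges over the 2 libraries except EPSTI1 with IFI44L and IFI44L with XAF1, which overlapped. With 2 libraries per group the order has no test, and several of the separate ranges lie close together.

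**Figure D2:**
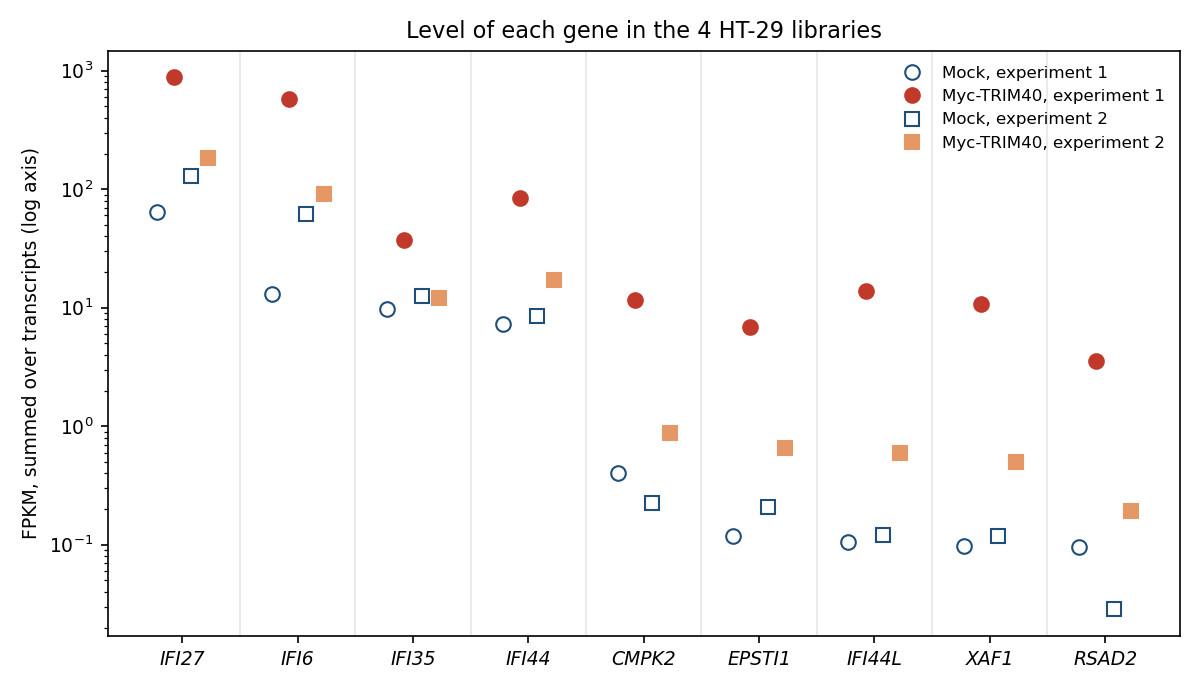
FPKM of each member, summed over its transcripts, in the 4 libraries on a log axis, with open symbols for Mock, filled symbols for Myc-TRIM40, circles for experiment 1 and squares for experiment 2. IFI27 is the highest member in every library, and the filled circle of experiment 1 is the highest point for all 9 members.

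RSAD2, the viperin gene (chr2:7017796-7038363, hg19), had 21 reads in Mock and 780 in Myc-TRIM40 of experiment 1, and 7 and 44 reads in experiment 2. Both Myc-TRIM40 libraries were above both Mock libraries. Per normalized read, RSAD2 was 36.2-fold higher with Myc-TRIM40 in experiment 1 (95% interval 23.5 to 58.8) and 6.23-fold higher in experiment 2 (2.78 to 16.4). These intervals are exact binomial intervals on the reads and cover counting error only. The fitted log2 fold change over both experiments was 4.29 ± 0.58 (SE), which was the 16th highest of 14868 genes tested. Its adjusted p was 0.0795 by edgeR's quasi-likelihood test, and RSAD2 was the member with the smallest p. DESeq2 with the same block gave 2.43e-07, and over all alternatives the adjusted p ran from 2.43e-07 to 1.00.

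CMPK2, the nucleotide kinase gene that lies 11029 bases from RSAD2 (chr2:6980684-7006766), had 64 reads in Mock and 2034 in Myc-TRIM40 of experiment 1, and 46 and 158 in experiment 2. Its groups did not overlap either. The fold was 30.9 in experiment 1 (24.1 to 40.3) and 3.40 in experiment 2 (2.44 to 4.84). Over both experiments the fitted log2 fold change was 3.45 ± 0.68 (adjusted p = 0.313 by edgeR). The counting intervals of the RSAD2 and CMPK2 folds overlapped in each experiment, where those of RSAD2 rest on few Mock reads.

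IFI44 and IFI44L, paralogs that lie 3643 bases apart on chromosome 1, differed in level and in fold. IFI44 (chr1:79115474-79129763) had 7.34 FPKM in Mock and 84.3 in Myc-TRIM40 of experiment 1, and 8.48 and 17.0 FPKM in experiment 2. It was the plainly expressed member with the largest fold in experiment 2, at 1.85 (1.71 to 2.01), against 11.9 (11.0 to 12.9) in experiment 1. Fitted over both experiments, its log2 fold change was 2.24 ± 0.57 (adjusted p = 0.587 by edgeR).

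IFI44L (chr1:79086067-79111830) had 39 reads in Mock and 5090 in Myc-TRIM40 of experiment 1, and 50 and 227 reads in experiment 2. The 2 Mock libraries were close to each other, and both Myc-TRIM40 libraries were above them. The fold of 127 in experiment 1 (92.8 to 179) was the largest of the 9 members, and that in experiment 2 was 4.50 (3.30 to 6.24). The fitted log2 fold change of 4.64 ± 1.03 was the largest among the members and the 12th highest of all genes tested (adjusted p = 0.442 by edgeR).

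IFI6, whose product protects cells from apoptosis and blocks the remodelling of endoplasmic reticulum by flaviviruses (chr1:27992572-27998724), had 13.0 FPKM in Mock and 583 in Myc-TRIM40 of experiment 1. In experiment 2 it had 62.1 FPKM in Mock and 90.6 in Myc-TRIM40. Its Mock level was therefore unlike between the experiments, 5.08 times higher per normalized read in experiment 2, which was the widest Mock difference among the members. The fold was 43.8 in experiment 1 (40.6 to 47.3) and 1.34 in experiment 2 (1.28 to 1.40). The fitted log2 fold change was 2.92 ± 1.15, the largest error of the 9 members (adjusted p = 0.888 by edgeR).

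IFI27, from the same family of small membrane proteins (chr14:94577079-94583036), showed the same order of the 4 libraries. It had 64.0 FPKM in Mock and 879 in Myc-TRIM40 of experiment 1, and 128 and 183 FPKM in experiment 2. Its Mock level was 2.13 times higher per normalized read in experiment 2. The fold was 13.5 in experiment 1 (12.9 to 14.0) and 1.31 in experiment 2 (1.27 to 1.36), and the fitted log2 fold change was 2.07 ± 0.71 (adjusted p = 0.888 by edgeR).

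IFI35 (chr17:41158742-41166476) was the member that did not keep its direction. It had 9.69 FPKM in Mock and 37.2 in Myc-TRIM40 of experiment 1, and 12.6 and 12.0 FPKM in experiment 2, so the groups overlapped. Per normalized read the fold was 3.75 in experiment 1 (3.46 to 4.06) and 0.875 in experiment 2 (0.801 to 0.955). On the TPM + 1 scale the log2 ratio in experiment 2 was 0.16, but the median of all genes tested on that scale was itself shifted to 0.27. IFI35 was below the median of all genes in experiment 2 on the other scales too, at -0.06 against 0.08 on FPKM + 1 and at -0.18 against 0.02 on TMM-normalized reads with 1 added. Over both experiments together its fitted log2 fold change was 0.86 ± 0.44 (adjusted p = 0.888 by edgeR).

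EPSTI1 (chr13:43460524-43566448) had 25 reads in Mock and 1358 in Myc-TRIM40 of experiment 1, and 46 and 134 reads in experiment 2. The groups did not overlap, and the folds were 52.9 (35.7 to 82.0) and 2.89 (2.05 to 4.13). The fitted log2 fold change was 3.60 ± 0.87 (adjusted p = 0.543 by edgeR).

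XAF1, which can antagonise XIAP and promote apoptosis (chr17:6659156-6678964), had 22 reads in Mock and 2399 in Myc-TRIM40 of experiment 1, and 30 and 116 reads in experiment 2. Both Myc-TRIM40 libraries were again above both Mock libraries. The fold was 106 in experiment 1 (70.0 to 170) and 3.83 in experiment 2 (2.55 to 5.93), and the fitted log2 fold change was 4.43 ± 1.00 (adjusted p = 0.451 by edgeR).

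**Figure D3:**
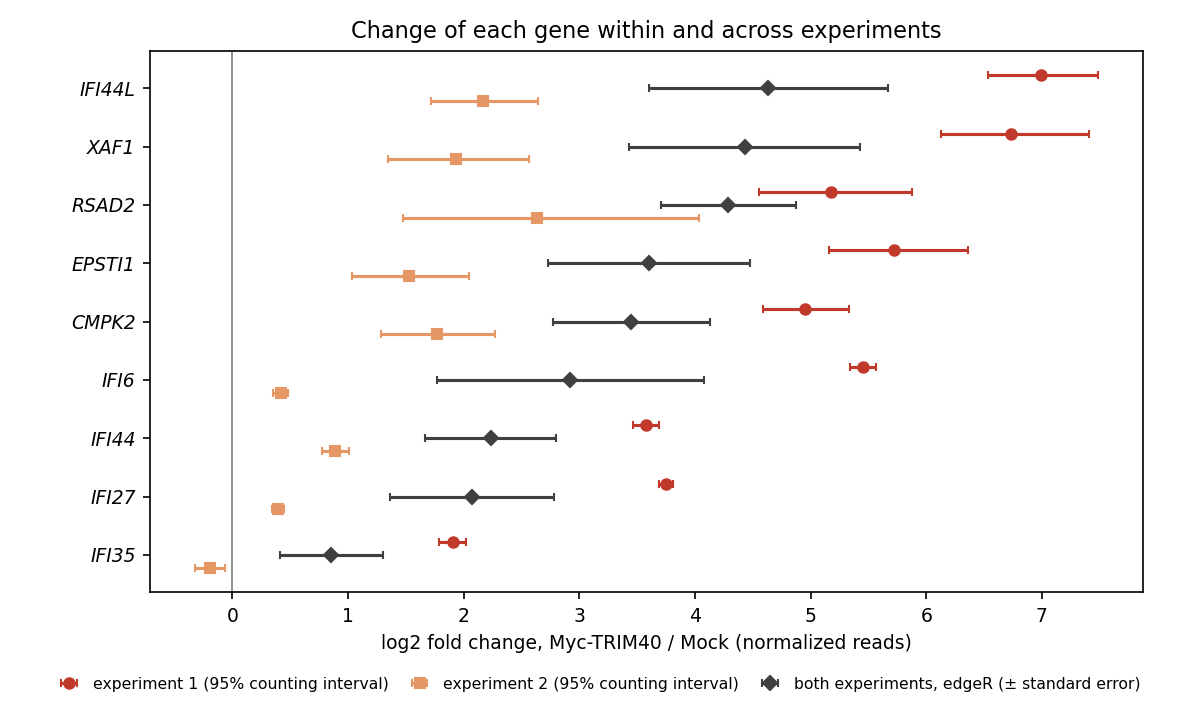
Log2 fold change of normalized reads, Myc-TRIM40 over Mock, for each member: circles for experiment 1 and squares for experiment 2 with 95% counting intervals, and diamonds for the edgeR fit over both experiments with its standard error. The circle lies to the right of the square for all 9 members, and the square of IFI35 lies left of 0.

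All 9 members passed the filter on low counts. None of the 9 passed an adjusted p of 0.05 in edgeR, where 0.0404% of the 14868 genes tested were called higher. At an unadjusted p of 0.05 by the same test, 8 of 9 members were higher and 0 were lower, and IFI35 was the exception. Of all genes, 3.41% were called higher, and the share called lower is not given here. DESeq2 called 1 of 9 members, RSAD2, at an adjusted p of 0.05, against 0.303% of all genes called higher. The other fits called 0 members at an adjusted p of 0.05, and at an unadjusted p they called between 1 of the 9 higher (limma on log2(FPKM + 1), against 2.29% of all genes) and 8 of the 9 (no block, against 0.861%). All 9 members were chosen with earlier results of these data known, so these counts are a description and not independent evidence. IFI44, IFI44L and XAF1 are also on a list the study chose on these libraries.

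The median fitted log2 fold change of the members was 3.45, beside 0.04 for all genes tested, and it ranged from 0.86 for IFI35 to 4.64 for IFI44L. In 8 of 9 members both Myc-TRIM40 libraries exceeded both Mock libraries in normalized reads, which held for 11.0% of all genes tested. Likewise 8 of 9 members were higher with Myc-TRIM40 in both experiments, against 28.6% of all genes. IFI35 was again the exception in both counts.

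The size of the change differed between the experiments for every member. The median log2 ratio of normalized reads over the 9 members was 5.18 in experiment 1 and 1.53 in experiment 2, beside medians of 0.00 and 0.03 over all genes tested. All 9 members had the larger fold in experiment 1, with counting intervals that did not overlap between the experiments. The intervals cover counting error only, and the share of all genes for either count was not computed. Among the markers of colon epithelium, all but CDX2 also had intervals that did not overlap between the experiments. TRIM40 itself was 2.53 times higher in experiment 1, as given above, and its part in this difference was not tested. With 1 library per condition in each experiment, the difference between the experiments cannot be tested against replicate spread.

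The members that were nearly silent in Mock had the larger folds in experiment 2. The 5 members under 1 FPKM in Mock had folds between 2.89 and 6.23 in experiment 2, whereas the 4 members over 1 FPKM had folds between 0.875 and 1.85, and the ranges did not overlap. In experiment 1 the corresponding folds were 30.9 to 127 and 3.75 to 43.8, where the ranges overlapped through IFI6. This split at 1 FPKM was made after the values were seen. Between the experiments, the 9 folds had a Spearman rho of 0.67, given as a description over genes that share the same 4 libraries.

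The study compared ratios of FPKM + 1 within each experiment and kept genes that changed in both. On that scale 9 of 9 members were at least 1.5-fold higher in experiment 1, against 2.78% of all genes tested, and 2 of 9 in experiment 2, against 8.54%. These 2 were CMPK2, with ratios of 8.99 and 1.53, and IFI44, with ratios of 10.2 and 1.90, and they were also the 2 of 9 that reached 1.5-fold in both experiments, against 0.457% of all genes. Of CMPK2 and IFI44, only IFI44 is on the list the study chose on these libraries, which also holds IFI44L and XAF1. On the FPKM + 1 scale IFI44L and XAF1 had ratios of 1.43 and 1.34 in experiment 2, under 1.5-fold. The 1.5-fold count therefore does not stand for the study's own selection. Adding 1 FPKM reduces the ratio of genes that lie under 1 FPKM. RSAD2 was 6.23-fold higher per normalized read in experiment 2 but had a ratio of 1.16 on the FPKM + 1 scale, and IFI44L had 4.50 and 1.43. With a pseudocount of 0.1 FPKM, 6 of 9 members reached 1.5-fold in both experiments, against 1.74% of all genes tested.

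Reads of most members were spread over several annotated transcripts, and the number of transcripts with reads was 20 of 33 in Mock and 29 of 33 in Myc-TRIM40 of experiment 1, and 20 and 22 in experiment 2. The remaining 4 transcripts, all of IFI27, were at 0 in every library. None of the 9 members overlapped a transcript of another gene. Shares between transcripts of one gene are estimates, because the transcripts share exons.

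CMPK2 had a transcript with reads in both Myc-TRIM40 libraries and in neither Mock library. This 2426-base non-coding transcript had 0 reads in both Mock libraries, 292 in Myc-TRIM40 of experiment 1 and 50 in that of experiment 2. The whole gene had only 64 and 46 reads in the Mock libraries, which do not show that the transcript was absent there. The 2426-base transcript made up 16.6% of the FPKM of the gene in Myc-TRIM40 of experiment 1 and 35.8% in that of experiment 2. The 3014-base coding transcript made up 44.3% and 71.1% in Mock and Myc-TRIM40 of experiment 1, and 88.5% and 58.3% in experiment 2, so its share did not move the same way.

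XAF1 had reads on 1 of its 5 transcripts, the 3624-base one, in 3 libraries, and on all 5 in Myc-TRIM40 of experiment 1, where that transcript kept 58.4% of the FPKM. EPSTI1 had all 25 Mock reads of experiment 1 on a 3242-base transcript and all 46 Mock reads of experiment 2 on a 3177-base transcript, and 4 transcripts shared the reads in Myc-TRIM40 of experiment 1. The number of transcripts with reads was thus highest in the library in which these genes had most reads. At 22 to 46 reads per gene, the Mock libraries do not show which other transcripts were present.

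The plainly expressed members kept more even shares. The 836-base transcript of IFI6 made up 83.8% and 77.3% of the FPKM in Mock and Myc-TRIM40 of experiment 1, and 74.2% and 76.7% in experiment 2. The 1726-base coding transcript of IFI44 made up 58.2% and 77.3% in experiment 1 and 68.4% and 68.3% in experiment 2. IFI27 divided its reads between a 621-base and a 655-base transcript in all 4 libraries, the latter with 47.5% to 55.1% of the FPKM. The 1250-base transcript of IFI35 had 69.6% and 61.7% in experiment 1 and 60.4% and 58.1% in experiment 2.

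**Figure D4:**
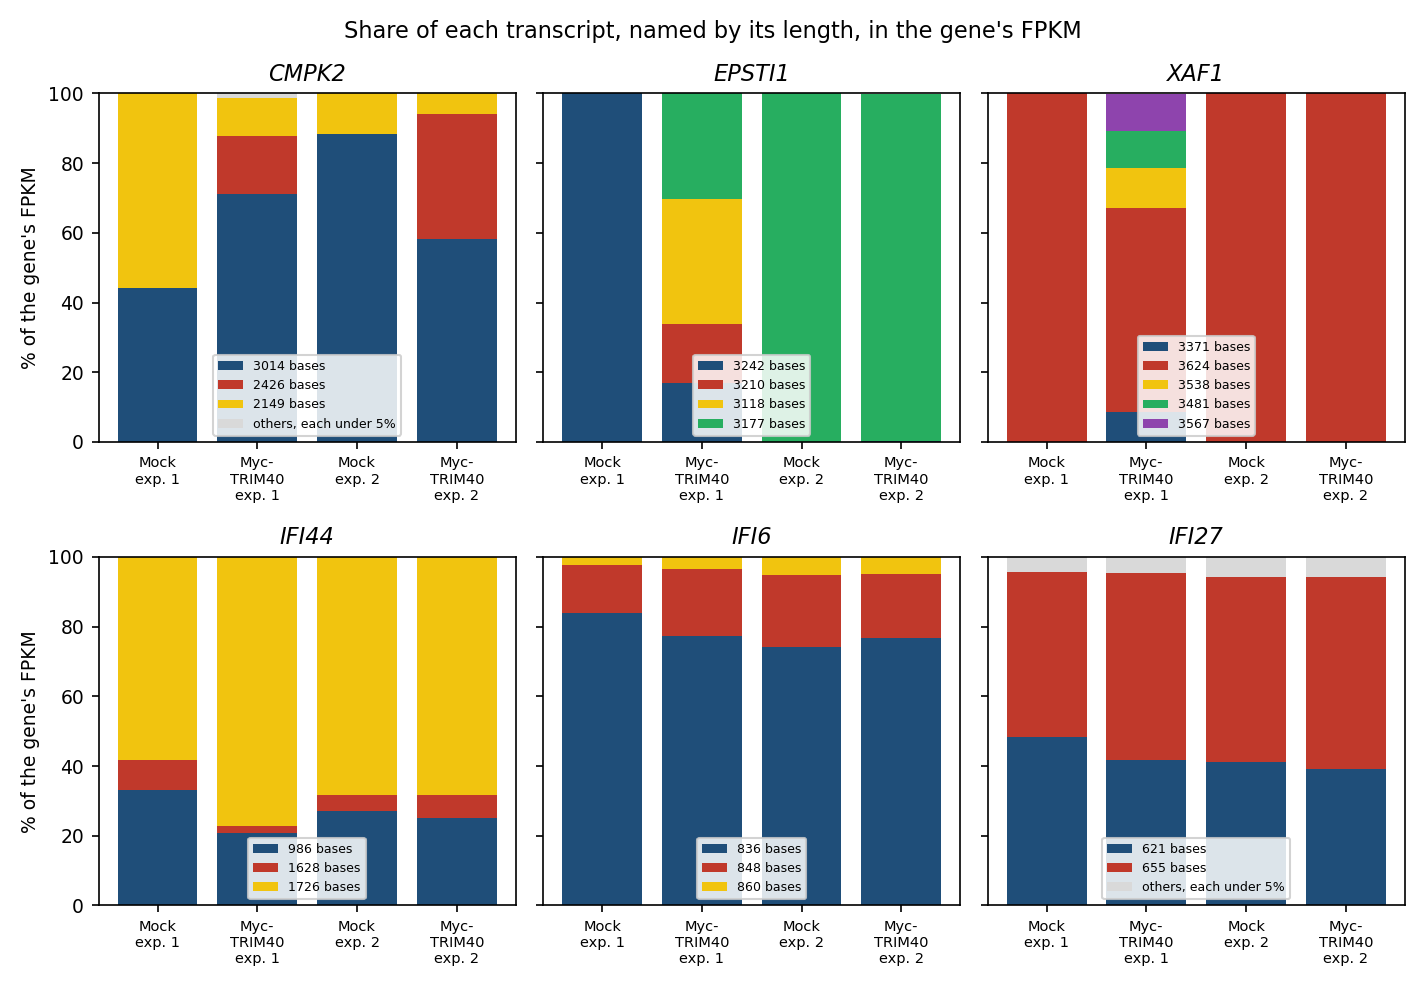
Share of each annotated transcript, named by its length in bases, in the FPKM of its gene for 6 members in the 4 libraries, with stacked bars that reach 100% and grey for transcripts that stayed under 5% in every library. Red in CMPK2 is the 2426-base non-coding transcript with reads only in the Myc-TRIM40 libraries, where the whole gene had 64 and 46 reads in Mock. XAF1 shows 5 transcripts in Myc-TRIM40 of experiment 1 and 1 in the other libraries.

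A list of 32 other genes of the interferon pathway, from ligands and receptors to effectors, was examined beside the members, and 29 of them could be tested. None of the 29 passed an adjusted p of 0.05 in edgeR in either direction. At an unadjusted p of 0.05, 19 were higher and 0 lower by edgeR, against 3.41% of all genes called higher. DESeq2 called 8 of 29 higher and 0 lower at an adjusted p of 0.05, against 0.303% of all genes called higher. The share of all genes called lower is not given here for either test. This list was also chosen with earlier results of these data known. Their median fitted log2 fold change was 1.38, with 27 above 0 and 2 below. Of all 14868 genes tested, 8168 were above 0 and 6700 below. The medians of the pathway genes in the separate experiments were 2.27 and 0.53. On the FPKM + 1 scale 12 of 29 were at least 1.5-fold higher in both experiments, against 0.457% of all genes tested. The members had 2 of 9 on this scale, a count that depended on the scale. In 17 of 29 both Myc-TRIM40 libraries were above both Mock libraries, against 11.0% of all genes.

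The 4 highest of the 29 had fitted changes like those of the nearly silent members. TRIM22, an antiviral TRIM protein, had 0 and 353 reads in Mock and Myc-TRIM40 of experiment 1 and 7 and 32 in experiment 2, at least 115-fold higher than the floor of 3 reads in experiment 1. Its fitted log2 fold change was 4.98 ± 1.24 (adjusted p = 0.578 by edgeR). SAMD9L, a restriction factor of poxviruses, had 10 and 608 reads and then 13 and 48, with a fitted log2 fold change of 4.01 ± 0.84 (adjusted p = 0.356 by edgeR). It was the only one of these 4 genes that DESeq2 called, with an adjusted p of 9.67e-05 and a range up to 1.00 over the other fits.

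OAS2, a sensor of double-stranded RNA, had 2.01 and 103 FPKM in experiment 1 and 2.01 and 9.44 FPKM in experiment 2, with a fitted log2 fold change of 3.98 ± 0.77 (adjusted p = 0.293 by edgeR). IFITM1, which blocks viral entry, had 2.28 and 196 FPKM and then 2.99 and 6.74 FPKM, with 3.73 ± 1.20 on the same scale (adjusted p = 0.888 by edgeR). In all 4 genes the change was larger in experiment 1. The 2 lowest were IRF3, the factor that starts interferon transcription, at -0.26 ± 0.22, and IL10RB, a subunit of the receptor for type III interferon, at -0.10 ± 0.23 on the log2 scale.

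The 3 genes of the list with too few reads for the test were IFNB1, IFNL1 and SOCS1. IFNL1, a type III interferon, had 8 reads in Mock and 176 in Myc-TRIM40 of experiment 1, and 5 reads in each library of experiment 2. IFNB1, the type I interferon of epithelial cells and fibroblasts, had 32 reads in Myc-TRIM40 of experiment 1 and 0 in the other 3 libraries. SOCS1, a feedback inhibitor of JAK kinases, had 0, 25, 6 and 10 reads in Mock and Myc-TRIM40 of experiment 1 and then of experiment 2.

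**Figure D5:**
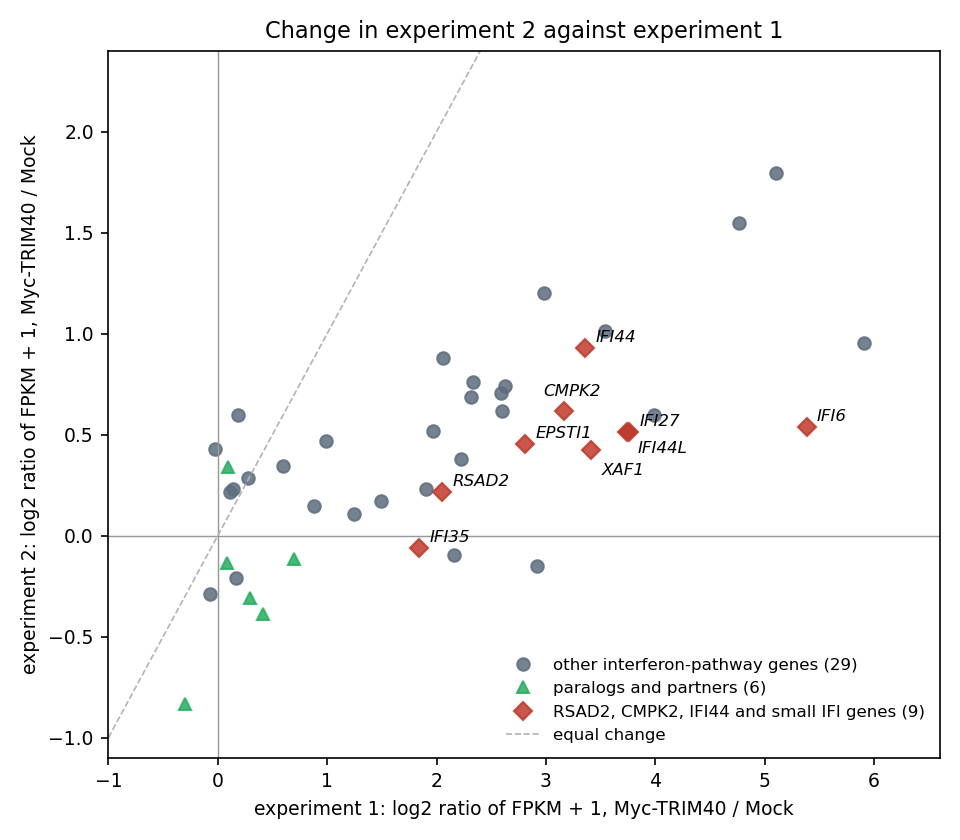
Log2 ratio of FPKM + 1, Myc-TRIM40 over Mock, in experiment 2 against experiment 1 for the 9 members (red, named), 29 other genes of the interferon pathway (grey) and 6 paralogs and partners (green), with different axis ranges and a dashed line for equal change. All 9 members lie below the dashed line, and the paralogs and partners lie between -0.30 and 0.70 in experiment 1.

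Paralogs of the members that are not among them, and partners of their products, were examined as a further list. The median fitted log2 fold change of the 6 genes was -0.08. Of these, 5 of 6 were higher in experiment 1 (median log2 ratio 0.19), against 7467 of all 14868 genes tested. In experiment 2, 1 of 6 was higher (median -0.37), against 7732 of 14868. IFI27L1 (-0.10 ± 0.27) and IFI27L2 (-0.07 ± 0.29), paralogs of IFI27, and CMPK1 (-0.11 ± 0.22), the cytosolic relative of CMPK2, were within their errors of 0. XIAP, the partner of XAF1, was at 0.14 ± 0.21, and NMI, the partner of IFI35, was at 0.23 ± 0.27. NMI, like IFI35, was higher with Myc-TRIM40 in experiment 1, at 1.64-fold (1.52 to 1.77), and lower in experiment 2, at 0.843 (0.797 to 0.892).

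DTYMK, which acts beside CMPK2 in supplying thymidine nucleotides, had 69.4 and 56.1 FPKM in Mock and Myc-TRIM40 of experiment 1 and 141 and 78.3 FPKM in experiment 2. Its fitted log2 fold change was -0.66 ± 0.24 (adjusted p = 0.888 by edgeR). Its Mock level was 2.16 times higher per normalized read in experiment 2, and no adjusted p of the 6 genes was under 0.05 in edgeR or in any other fit.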

How the data were processed

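RNA was measured by RNA-seq in HT-29 cells with a control vector or Myc-TRIM40, with 1 library of each per experiment. Libraries were made with a TruSeq Stranded mRNA kit, and the submitters' processing notes name HISAT2 2.1.0, StringTie 1.3.4d and the build hg19. For each RefSeq transcript the authors deposited a whole-number read count, its FPKM and, in experiment 2, its TPM. The deposited counts were taken here as estimated counts, since the counter and strand setting are not given in the sources used here, and the counting intervals treat them as reads. TPM of experiment 1 was computed here from FPKM. The microarray and the tissue samples were not analysed here. Gene coordinates are those of the files, and promoter windows are from a RefSeq table of GRCh38.p14, with no conversion between the builds.

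Transcripts were summed per gene. The test was edgeR 4.0.16 (glmQLFit and glmQLFTest, two-sided, R 4.3.3) applied to the 14868 genes that filterByExpr retained. Scaling was by TMM, the experiment was a block, and p-values were adjusted by Benjamini-Hochberg. Each standard error given with a fitted change was derived as the absolute log2 fold change divided by the square root of the F statistic of the test. It left 1 residual degree of freedom, so its p-values rest on the spread between 2 experiments together with the variance shared across genes (median prior of 7.44 degrees of freedom). The block follows the replicate numbers in the labels and the deposited tables, each of which holds 1 Mock and 1 Myc-TRIM40 library, and deviations of same-numbered libraries had a correlation of 0.45 over 14868 genes. Totals of 60954602 to 67424698 reads limit the precision of genes with few reads, and the number of experiments limits every fold change. Intervals within an experiment are exact binomial ones at 95%, a gene at 0 was set against a floor of 3 reads, and both cover counting error only. The code was tested on simulated data. Alternatives were DESeq2 1.42.0, limma 3.58.1 on log2(FPKM + 1), no block, upper-quartile scaling, no filter, other pseudocounts, thresholds and scales, and single experiments. Python 3.11.15, pandas 2.3.3, scipy 1.17.1 and matplotlib 3.10.9 did the rest.

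The members and the gene lists were chosen with earlier results of these data known. Named are all members, TRIM40, the 4 highest and 2 lowest tested genes of the interferon pathway list, the 6 paralogs and partners, and transcripts with at least 5% of the FPKM of a gene in any library. The untested genes IFNB1, IFNL1 and SOCS1 were named after their values were seen. No set test was run.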

Additional observations from a re-analysis of the deposited data

How the results depend on the processing

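The direction of the 9 fold changes was the same in all 45 values from the other fits of both experiments, and 1 of these, RSAD2 in DESeq2, passed an adjusted p of 0.05. These fits share the same libraries, so the shared direction is not independent evidence. DESeq2 called 1 member and 8 other pathway genes higher, where edgeR called 0 and 0; the cause was not tested. Without the replicate block, edgeR called 0 members and the median log2 fold change of the members was 4.30 in place of 3.45. Over the other fits the median ran from 1.92 (limma on FPKM + 1) to 4.30, and in single experiments it was 1.53 in experiment 2 and 5.18 in experiment 1. Without it 0 of all genes tested were called higher at an adjusted p, against 6 with it, and 16 in place of 19 other pathway genes were higher at an unadjusted p.

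The count of members at least 1.5-fold higher in both experiments, 2 on FPKM + 1, depended on the scale. It was 6 with a pseudocount of 0.1 (1.74% of all genes) and 6 with 0.01 (3.46%), 7 on TPM (1.10%), where the median of all genes was shifted by 0.27 in experiment 2, and 6 on TMM-normalized reads with 1 added (0.632%). It was 1 after centring on the median (0.356%), 2 among genes with a mean of at least 1 FPKM (0.562%) and 0 at a 2-fold threshold (0.128%). In single experiments it was 2 in experiment 2 and 9 in experiment 1. IFI35 reversed, at -0.19 on the log2 scale in experiment 2 alone against 1.91 in experiment 1 alone. Reads of RSAD2 (7 in Mock of experiment 2) limited its fold there to an interval of 2.78 to 16.4, and 1 library per condition and experiment allows no test within an experiment.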

Other observations

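NRIR, a long non-coding RNA gene known as a regulator of interferon responses that lies beside CMPK2 on chromosome 2 (chr2:6968685-6980595, hg19), was looked at after its values were seen. It had 0 reads in both Mock libraries, 11 reads in Myc-TRIM40 of experiment 1 and 0 reads in Myc-TRIM40 of experiment 2, where a count of 0 allows up to 3 reads. CMPK2 had 2034 and 158 reads in the same Myc-TRIM40 libraries.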
